A study of Mus musculus with 3 samples.

Results

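Protein kinase C (PKC) is a family of serine/threonine kinases, and 8 of its genes, Prkca, Prkcb, Prkcd, Prkce, Prkch, Prkcq, Prkcz and Prkci, were followed here through the cell types of mouse lumbar spinal cord. The 8 genes were found by symbol among the 31040 genes of the UMI table. They were chosen on a measured result, the lower levels of Prkca and Prkcb in SOD1G93A motor neurons, so the genotype difference of the 8 genes in motor neurons is given as a description without a p-value. Single-nucleus RNA-seq (snRNA-seq) had been performed on 12 mice aged 90 days, 3 females and 3 males of each genotype. SOD1G93A mice (B6.Cg-Tg(SOD1G93A)1Gur/J) carry many copies of a mutant human SOD1 transgene and model amyotrophic lateral sclerosis, and the WT mice were their C57BL/6J littermates. Hashtag antibodies marked the nuclei of each mouse, and 4 mice, a female and a male of either genotype, shared each of 3 pools (A, B and C). The deposited annotation placed the 14662 nuclei in 10 cell types. Neurons other than motor neurons were in 9 sub-types, 1 of them for unclear neurons and the rest by position and transmitter, and 27 had no sub-type.

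The table held 206486779 UMIs (unique molecular identifiers, each standing for 1 captured RNA molecule), with a median of 9434 per nucleus. Levels are given in CPM, the UMIs of a gene per 1000000 UMIs of the same mouse and population. Sod1, read here as a check of the genotype labels, was at 72.3 to 768 CPM in SOD1G93A motor neurons and at 5.58 to 41.5 CPM in WT motor neurons, and the genotypes did not overlap in 5 of the 10 types. By WT medians each type held the highest level of its own 3 markers among the types. In microglia, however, these markers (Cx3cr1, Csf1r, Ptprc) summed to a WT median of only 57.5 CPM while neuron markers stood at 490 CPM and oligodendrocyte markers at 2424 CPM, and the median microglial nucleus held 50964 UMIs in WT mice. Schwann and meningeal nuclei, with a median of 1344.5 UMIs in WT mice, held their own markers at a WT median of 122 CPM. They held oligodendrocyte markers at 5839 CPM, near the 6163 CPM of oligodendrocytes themselves. Motor neurons numbered 67 nuclei, 44 from WT mice (4 to 11 per mouse) and 23 from SOD1G93A mice (1 to 6 per mouse). The SOD1G93A female of pool C gave a single motor neuron of 27658 UMIs, and the motor neuron differences of Prkca and Prkcb are also given without this mouse. The pools shared 30 barcodes.

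PKC isoforms phosphorylate receptors, channels and cytoskeletal proteins once they are recruited to membranes. The conventional isoforms, here Prkca and Prkcb, need both calcium and diacylglycerol, the lipid that phospholipase C releases after Gq-coupled receptors are engaged. Prkcd, Prkce, Prkch and Prkcq respond to diacylglycerol without calcium, and the atypical isoforms Prkcz and Prkci respond to neither and act with Par6 and Par3 in cell polarity. In motor neurons, PKC is best known for tuning excitability and synaptic strength downstream of metabotropic receptors.

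The genes differ greatly in size, which bears on their UMIs because the nuclear reads were counted over introns as well as exons. Prkca (minus strand, chromosome 11, 107933387 to 108343928) spans 411 kb of GRCm38, of which exons make up 2.19%, and Prkcb (plus strand, chromosome 7, 122288751 to 122634402) spans 346 kb with 2.21% in exons. Prkce is the longest at 490 kb and Prkcd the shortest at 30.9 kb. The gene body of Prkcb contains 7 annotated genes on its own strand, so some of its UMIs may stem from those, whereas Prkca has none on its strand. The start-site regions of Prkca and Prkcb are shown since both genes were lower in motor neurons. Each is 300 bases from RefSeq (GRCm38.p6), from 250 bases upstream of the transcription start to 50 bases downstream, written 5′ to 3′ on the strand of the gene (Prkca chr11:108343839-108344138, minus; Prkcb chr7:122288875-122289174, plus). Capitals mark the GC box (GGGCGG on either strand).
Prkca: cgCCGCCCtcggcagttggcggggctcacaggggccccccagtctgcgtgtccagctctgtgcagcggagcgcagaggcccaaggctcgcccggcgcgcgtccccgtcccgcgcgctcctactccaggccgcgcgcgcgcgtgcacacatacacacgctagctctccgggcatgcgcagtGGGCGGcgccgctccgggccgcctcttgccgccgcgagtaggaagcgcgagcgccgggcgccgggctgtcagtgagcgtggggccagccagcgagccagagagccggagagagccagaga
Prkcb: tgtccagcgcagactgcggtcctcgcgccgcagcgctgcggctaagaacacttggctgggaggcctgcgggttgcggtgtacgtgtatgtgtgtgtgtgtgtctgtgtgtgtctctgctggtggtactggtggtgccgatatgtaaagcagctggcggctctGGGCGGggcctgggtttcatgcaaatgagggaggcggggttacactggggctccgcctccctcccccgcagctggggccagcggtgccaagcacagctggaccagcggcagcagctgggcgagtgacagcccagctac
Prkca held 2 GC boxes and Prkcb 1, a motif present in 35.7% of 32851 promoters of this length, a set that left out 1 chromosome. Neither contained the E-box CACGTG (7.15% of promoters), CCAAT (37.4%), TATAAA (13.6%), the cAMP response element TGACGTCA (1.79%) or the AP-1 site TGACTCA (5.20%) on either strand. The GC content was 75.3% for Prkca and 65.3% for Prkcb, against a median of 52.7% over the same 32851 promoters (quartiles 45.7% and 61.7%). Promoters were held for 6 of the 8 genes, all but Prkce and Prkch.

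The isoforms differed in the cells where their WT levels were highest, although some shared their highest cell type, and since these levels belong to the nuclei from which the genes were chosen they are given without a test. Prkca was highest in glia, with its top mean in oligodendrocytes (721 ± 50.5 CPM, SD, n = 6 mice), followed by astrocytes (629 ± 149), oligodendrocyte precursors (OPCs, 586 ± 98.9), fibroblasts (573 ± 155, n = 5), microglia (379 ± 53.3), neurons (312 ± 44.6), motor neurons (294 ± 126), ependymal cells (231 ± 181, n = 5), Schwann and meningeal cells (199 ± 80.7) and endothelial cells (59.2 ± 29.9). Every neighboring pair in this order overlapped between mice except the last, where endothelial cells (30.2 to 110 CPM) stood below Schwann and meningeal cells (127 to 346 CPM). Among neuron sub-types, Prkca was highest in dorsal excitatory (467 ± 81.8 CPM) and dorsal inhibitory neurons (459 ± 50.4), followed by mid inhibitory neurons (324 ± 56.8), which overlapped the dorsal excitatory but not the dorsal inhibitory range. Ventral excitatory (153 ± 16.7), ventral inhibitory (161 ± 35.7) and ventral mixed neurons (123 ± 24.6) were lowest.

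Prkcb had its highest mean in neurons, 491 ± 43.1 CPM (n = 6), ahead of OPCs (433 ± 50.2), microglia (405 ± 58.7), motor neurons (386 ± 114), Schwann and meningeal cells (322 ± 118), endothelial cells (292 ± 100.3), fibroblasts (275 ± 230, n = 5), oligodendrocytes (215 ± 44.6), astrocytes (172 ± 27.3) and ependymal cells (60.4 ± 70.2, n = 5). No neighboring pair in this order was separated beyond the spread of the mice. Its sub-type order also differed from that of Prkca, since dorsal inhibitory neurons were highest at 624 ± 56.4 CPM but dorsal excitatory neurons were second to last at 393 ± 38.8, above ventral cholinergic neurons at 291 ± 73.8. Over the 18 populations made of the 9 non-neuronal or motor neuron types and the 9 sub-types, with mice of both genotypes averaged, Pearson's r between the log2 levels of Prkca and Prkcb was -0.25.

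**Figure D1:**
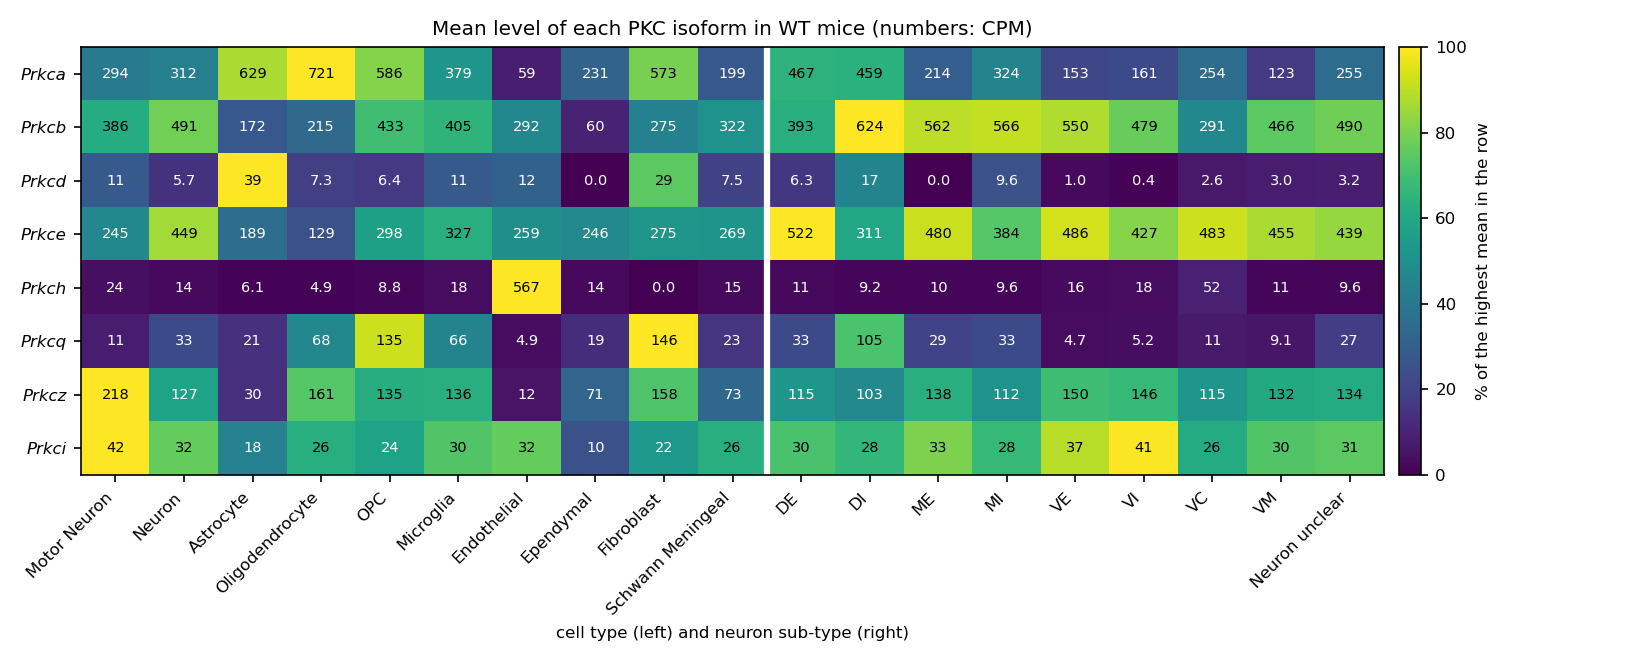
Mean CPM of each PKC isoform (rows) in WT mice by cell type (columns, left) and neuron sub-type (right; D dorsal, M mid, V ventral, E excitatory, I inhibitory, VC ventral cholinergic, VM ventral mixed), colored as a percent of the highest mean in the row. Prkch stood apart in endothelial cells, at 567 CPM, while Prkca and Prkcb were spread over most populations.

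Of the isoforms that respond to diacylglycerol without calcium, Prkce was the most evenly spread. It ranged from 449 ± 68.1 CPM in neurons to 129 ± 43.3 in oligodendrocytes, with motor neurons at 245 ± 31.6, and the only gap between neighbors lay between motor neurons and astrocytes (189 ± 20.8). Prkch was an endothelial gene, at 567 ± 109 CPM there and at 23.9 ± 11.5 in the next type, motor neurons, without overlap. No Prkch UMI was found in WT fibroblasts, which allows a level of up to 34.0 CPM (3 counts of their 88223 UMIs, counting error only). Within neurons, Prkch was highest in ventral cholinergic neurons (51.5 ± 11 CPM), the sub-type that shares its transmitter with motor neurons, and no mouse of the next sub-type (ventral inhibitory, 18.5 ± 8.83) reached the lowest of those values. Prkcq, first known from T cells, was highest in OPCs at 135 ± 37.1 CPM if fibroblasts are left aside, where a mean of 146 rested on 7 UMIs in 5 mice. The range of OPCs did not overlap that of the following type, oligodendrocytes (68.3 ± 12.4). Among neurons Prkcq marked the dorsal inhibitory sub-type (105 ± 12.9 CPM), with all 6 mice above every mouse of the dorsal excitatory sub-type (32.9 ± 8.47). Prkcd was low throughout, at 38.6 ± 4.13 CPM in astrocytes and at 5.70 ± 1.02 in neurons, and no UMI was seen in WT ependymal nuclei (limit 17.3 CPM).

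Both atypical isoforms had their highest mean in motor neurons, which their neighbors in the order overlapped. Prkcz, also the source of the brain-enriched kinase PKM-zeta, was at 218 ± 67.7 CPM in motor neurons, 161 ± 14.6 in oligodendrocytes, 127 ± 9.61 in neurons and 11.8 ± 7.17 in endothelial cells. Prkci was at 41.7 ± 8.90 CPM in motor neurons, 31.9 ± 3.51 in neurons and 10.4 ± 14.3 in ependymal cells (n = 5). Per kb of gene span, Prkcz had the highest value in WT motor neurons at 2.15 ± 0.669 CPM per kb, followed by Prkcb (1.12 ± 0.330), Prkci (0.729 ± 0.156), Prkca (0.715 ± 0.307), Prkce (0.499 ± 0.0646), Prkcd (0.355 ± 0.274), Prkch (0.123 ± 0.0592) and Prkcq (0.0869 ± 0.123). Prkcb led in the other neurons at 1.42 ± 0.125 CPM per kb. That order depends on the length used, since per kb of exon Prkcb led in motor neurons (50.4 CPM per kb), followed by Prkcz (34.5), Prkce (33.7) and Prkca (32.7), and whether UMIs scale with either length was not tested.

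In motor neurons, Prkca and Prkcb stood lower in SOD1G93A mice than in WT mice, in both sexes and in every pool. Prkca was at 249, 160 and 530 CPM in the WT females and at 242, 269 and 312 CPM in the WT males of pools A, B and C. It was at 103, 90.1 and 36.2 CPM in the SOD1G93A females and at 116, 114 and 156 CPM in the SOD1G93A males of the same pools. The highest SOD1G93A mouse was thus below the lowest WT mouse, and the fitted difference was -1.34 on the log2 scale (SE 0.236, 95% interval -1.83 to -0.85), a 2.53-fold lower level that rested on 168 and 697 UMIs. Prkcb was at 397, 291 and 583 CPM in the WT females and at 258, 384 and 402 CPM in the WT males. In SOD1G93A mice it was at 86.5, 202 and 181 CPM in females and at 81.9, 240 and 254 CPM in males. These ranges did not overlap either, though the highest SOD1G93A and the lowest WT mouse were only 254 and 258 CPM, and the log2 difference was -1.26 (SE 0.231, 95% interval -1.74 to -0.77). Both genes were lower in the SOD1G93A mouse of all 6 pairs of the same sex and pool. Without the SOD1G93A female of pool C the log2 differences were -1.30 and -1.24. Among the 10 mice with at least 3 motor neurons they were -1.33 and -1.13, and there, as in a fit without the pool term, Prkca was called and Prkcb was not. The fall of these genes in this contrast chose them, so the intervals and calls describe the fits and test nothing.

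**Figure D2:**
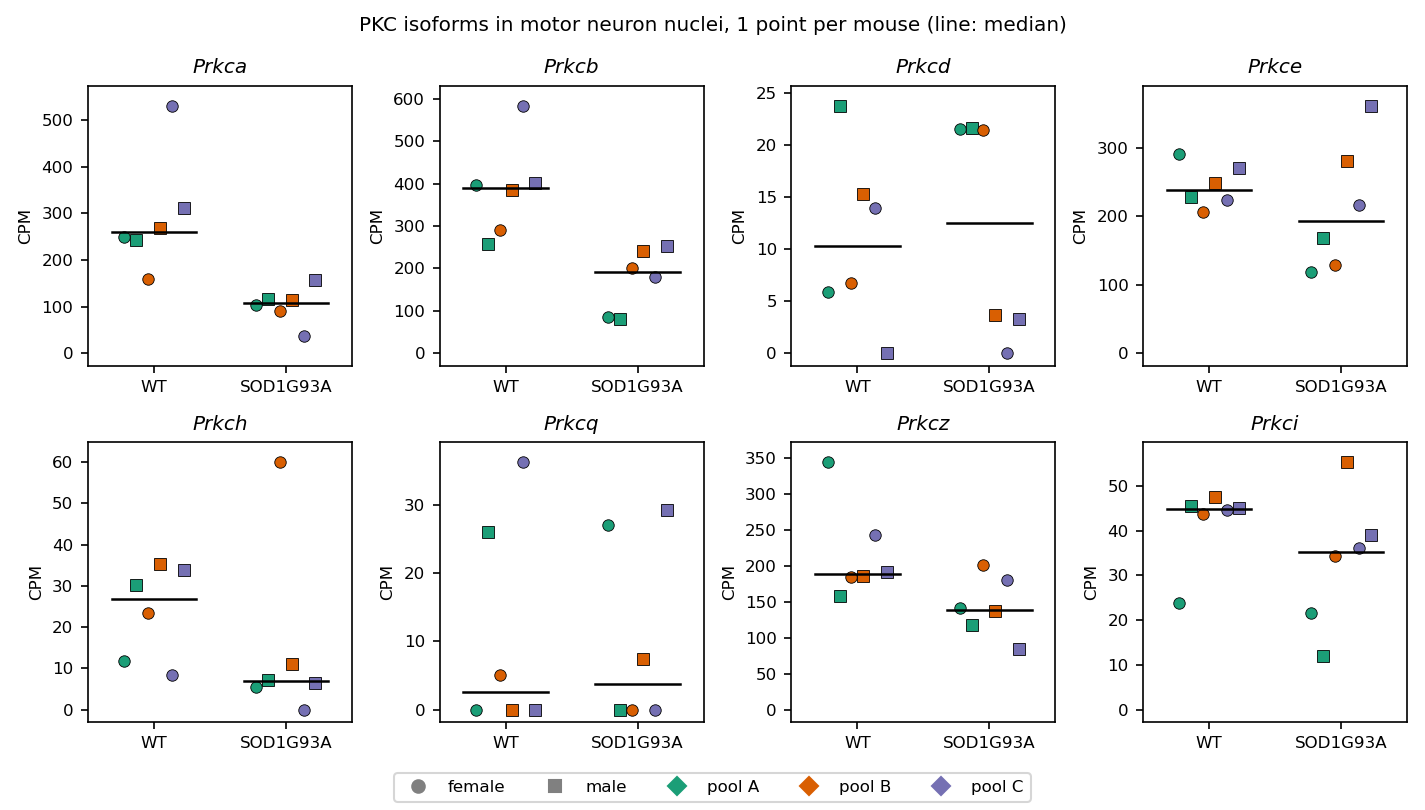
CPM of each PKC isoform in motor neurons (y axis, linear scale) in WT and SOD1G93A mice (x axis), with 1 point per mouse (circles female, squares male, colors the pools) and a line at the median. The genotypes did not overlap for Prkca and Prkcb, with medians of 259 and 109 CPM and of 391 and 191 CPM, and overlapped for the other isoforms.

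The remaining isoforms overlapped between genotypes. Prkcz ran from 158 to 344 CPM in WT mice (median 189) and from 84.5 to 202 CPM in SOD1G93A mice (median 138), with a log2 difference of -0.70 (95% interval -1.13 to -0.26). Prkce ran from 207 to 291 CPM (median 238) and from 119 to 361 CPM (median 193), with a log2 difference of -0.45 (-0.86 to -0.04), and SOD1G93A mice held both its lowest and its highest value. Averaged over single nuclei, Prkce was at 228 CPM in WT and 231 CPM in SOD1G93A motor neurons. Prkci ran from 23.7 to 47.6 CPM (median 44.9) and from 12.0 to 55.4 CPM (median 35.2), with a log2 difference of -0.49 (-1.22 to 0.24). Prkcd, Prkch and Prkcq did not pass the count filter in motor neurons, at 31, 65 and 28 UMIs over all WT mice and 20, 23 and 16 UMIs over all SOD1G93A mice. Of the 5 isoforms that passed, 2 were called at a false discovery rate (FDR) under 0.1, next to 3.07% of the 5118 genes tested in this contrast, and since the contrast chose the genes nothing is read from that count. All 5 had a log2 difference below 0, as did 49.7% of all genes tested, with a median of -0.70 against 0.00 over all genes. Prkca and Prkcb, whose fall chose the set, are among the 5, so nothing is read from these values either.

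Over single nuclei, the median of Prkca was 142 CPM in WT and 99.6 CPM in SOD1G93A motor neurons, that of Prkcb 201 and 132 CPM, and the nuclei with the highest levels were all from WT mice. The highest SOD1G93A nucleus held 239 CPM of Prkca, and 15 of the 44 WT nuclei, spread over all 6 WT mice, lay above it, the top one at 1516 CPM. For Prkcb the highest SOD1G93A nucleus held 444 CPM, and 14 WT nuclei from 6 mice lay above it, up to 1613 CPM. The nuclei above the SOD1G93A maximum were largely shared by both genes, with 12 above it for Prkca and Prkcb alike. A Chodl UMI was found in 13 of these 15 and in all 14. Prkcz also had 12 of 44 WT nuclei, from 5 mice, above its SOD1G93A maximum of 266 CPM, 8 of them with a Chodl UMI, and Prkce had 1. Chodl encodes a membrane protein used as a marker of fast alpha motor neurons, the large cells that drive muscle contraction.

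A split of the motor neurons by whether a nucleus held a Chodl UMI was therefore made after these values were seen, and it is described without a test. In WT mice 29 of 44 nuclei held one, and in SOD1G93A mice 12 of 23 did. Among nuclei with a Chodl UMI, Prkca was at 182 to 1121 CPM in 6 WT mice (median 302) and at 36.2, 92.6, 102, 113 and 156 CPM in 5 SOD1G93A mice, without overlap, and the log2 difference was -1.66. Prkcb in the same nuclei was at 301 to 1297 CPM (median 416) and at 75.2, 181, 220, 241 and 272 CPM, again without overlap, with a log2 difference of -1.45. Among nuclei with no Chodl UMI, WT mice were already low. Prkca was at 68.6 to 118 CPM (median 81.0) in 5 WT mice and at 42.9 to 155 CPM (median 121) in 5 SOD1G93A mice, and Prkcb was at 27.0 to 118 CPM (median 42.9) and at 42.9 to 321 CPM (median 86.6). The genotypes overlapped there for both genes, and the log2 differences were 0.26 and 1.04, opposite in sign to those over all motor neurons. They rested on few UMIs in 15 WT and 11 SOD1G93A nuclei, 49 and 76 for Prkca and 32 and 79 for Prkcb. The SOD1G93A male of pool C alone held 33 of the 79, in 2 nuclei. Nuclei with no Chodl UMI were shallower in WT mice, at a median of 26679 UMIs against 53254 for those with one, while in SOD1G93A mice the medians were 54800 and 67095. The absence of a Chodl UMI thus came at unequal depth in the genotypes, and the part of depth in the split was not tested.

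**Figure D3:**
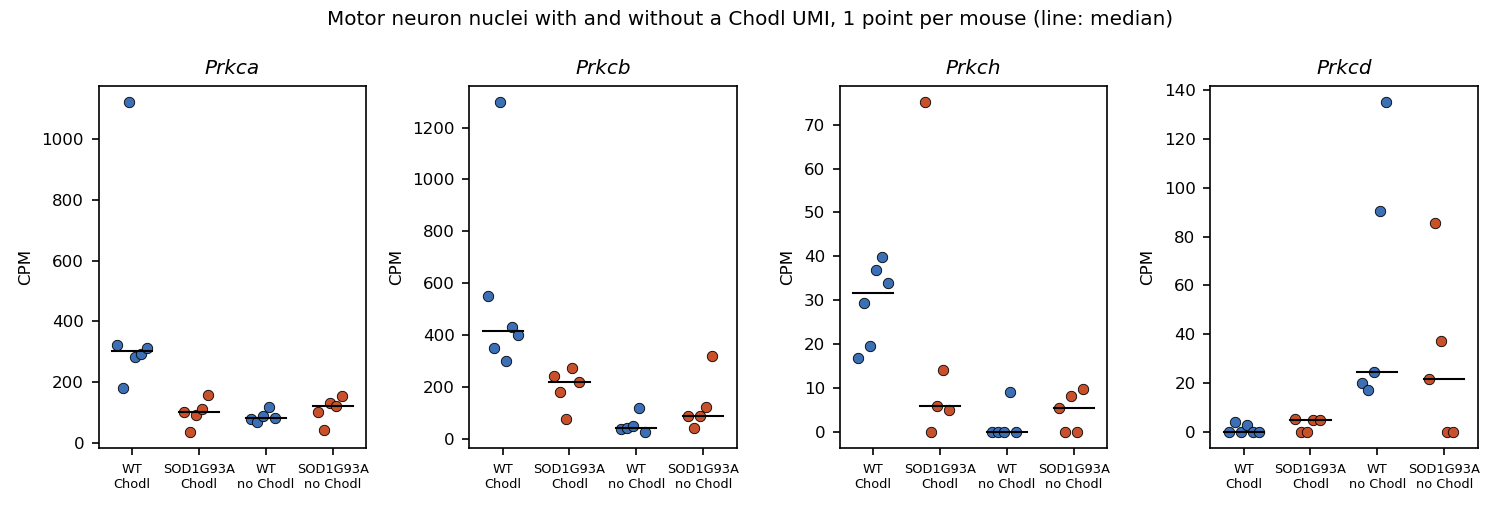
CPM of Prkca, Prkcb, Prkch and Prkcd in motor neurons (y axis) for nuclei with and without a Chodl UMI by genotype (x axis), with 1 point per mouse and a line at the median. In WT mice Prkca and Prkcb were high in nuclei with a Chodl UMI (medians 302 and 416 CPM) and lower in those without (81.0 and 42.9 CPM), whereas SOD1G93A mice had medians of 102 and 121 CPM for Prkca and of 220 and 86.6 CPM for Prkcb.

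Other isoforms followed the split in their own ways. Nuclei with a Chodl UMI held 77.8% of all motor neuron UMIs in WT mice and 55.9% in SOD1G93A mice. Of the 65 Prkch UMIs in WT motor neurons 64 were in nuclei with a Chodl UMI, and in SOD1G93A mice 19 of 23 were. The SOD1G93A count rested on the female of pool B, which held 14 of the 19, and without it 5 of 9 were, where such nuclei held 51.2% of all UMIs. Prkcd had the reverse placement, with 28 of 31 WT UMIs and 17 of 20 SOD1G93A UMIs in nuclei without one. The WT males of pools A and B each held 10 of the 28, in 2 nuclei each, and the SOD1G93A male of pool A held 9 of the 17. Prkce had medians of 245 CPM with and 225 CPM without a Chodl UMI in WT mice, and of 237 and 129 CPM in SOD1G93A mice. Prkcz had medians of 190 and 202 CPM in WT mice, and of 162 and 121 CPM in SOD1G93A mice. Esrrg is a marker of the small gamma motor neurons that serve muscle spindles. It had medians of 390 CPM with and 1167 CPM without a Chodl UMI in WT mice, and of 723 and 816 CPM in SOD1G93A mice. The alpha marker Rbfox3 was higher with a Chodl UMI in both genotypes, with medians of 318 and 178 CPM in WT mice and of 352 and 185 CPM in SOD1G93A mice. Vipr2, another alpha marker, had medians of 57.5 and 39.1 CPM in WT mice. In SOD1G93A mice its median was 57.9 CPM with a Chodl UMI, and it ran from 0 to 34.6 CPM without one, on 9 UMIs.

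Markers of motor neuron classes and of other cells were read beside these values, and their part in the difference of Prkca and Prkcb was not tested. The 5 alpha markers, all with UMIs in both genotypes, summed to 444 to 742 CPM in WT and 349 to 1113 CPM in SOD1G93A mice, and the log2 differences were -1.09 for Chodl, -1.12 for Vipr2, -0.46 for Rbfox3 and 2.49 for Spp1, none at an FDR under 0.1 (limma). The 5 gamma markers, also all with UMIs, summed to 432 to 1537 CPM in WT and 904 to 1492 CPM in SOD1G93A mice. The 3 oligodendrocyte markers summed to 52.6 to 686 CPM (median 180) in WT and 81.5 to 527 CPM (median 453) in SOD1G93A motor neurons, and the 4 markers of inhibitory neurons to 0 to 49.8 CPM (median 6.55) and 0 to 103 CPM (median 44.5). In WT mice the mean level in oligodendrocytes was above that in motor neurons for Prkca (721 and 294 CPM) and below it for Prkcb (215 and 386 CPM). The motor neuron markers Slit3, Prph and Chat summed to 1097 to 1649 CPM in WT and 680 to 2422 CPM in SOD1G93A mice.

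Outside motor neurons no isoform differed by genotype at an FDR under 0.1. In the 9 other cell types 46 tests of the 8 genes could be made, and limma called 0 (3 at an unadjusted p under 0.05, lowest FDR 0.268), as did edgeR and DESeq2, next to 0.368% of all 63866 gene tests called in these types. In the 9 neuron sub-types 0 of 56 tests were called by limma, edgeR or DESeq2 (5 at an unadjusted p under 0.05, lowest FDR 0.598), next to 0.0252% of 75459. In the neurons as a whole the log2 difference was 0.12 for Prkca (95% interval -0.10 to 0.34) and 0.01 for Prkcb (-0.16 to 0.18). For Prkca the interval was -0.20 to 0.38 in ventral cholinergic neurons and -0.23 to 0.18 in ventral excitatory neurons. Whether the difference in motor neurons departed from that in other types was not tested.

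**Figure D4:**
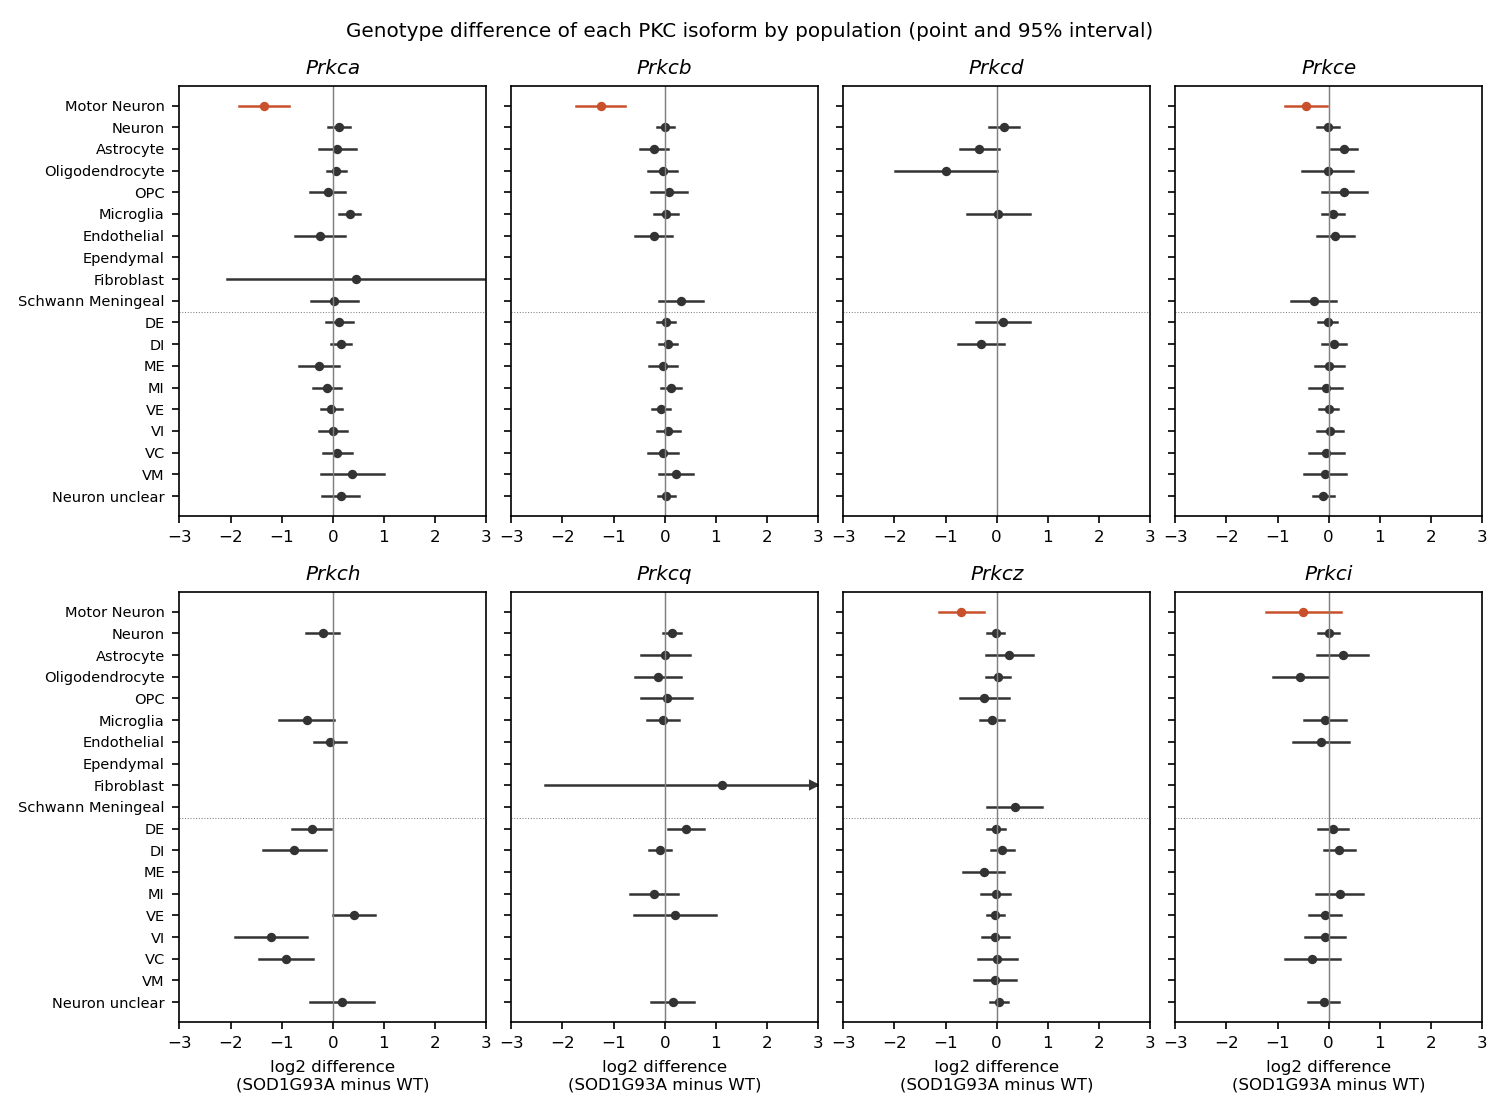
log2 difference of each PKC isoform, SOD1G93A minus WT (x axis), with its 95% interval by cell type and neuron sub-type (y axis), motor neurons in orange and the other populations in dark gray. The values of Prkca and Prkcb in motor neurons (-1.34 and -1.26) chose the genes and are a description, the interval of Prkca in microglia (0.12 to 0.54) lay above 0, and an arrow marks an interval that runs past the axis.

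Several isoforms came closest to a call in single populations, none of them past the threshold. Prkca in microglia was at 319 to 470 CPM in WT mice (median 360) and at 381 to 665 CPM in SOD1G93A mice (median 462), overlapping but higher in all 6 pairs, with a log2 difference of 0.33 (95% interval 0.12 to 0.54, FDR 0.287, limma). The same microglial nuclei held oligodendrocyte markers at a median of 2424 CPM in WT and 2369 CPM in SOD1G93A mice and neuron markers at 490 and 536 CPM, and their part in this value was not tested. Prkce in astrocytes was at 147 to 202 CPM (median 196) and at 224 to 271 CPM (median 240), without overlap, with a log2 difference of 0.30 (0.05 to 0.56, FDR 0.268, limma) and 5 of 6 pairs higher after scaling. Prkcd in oligodendrocytes was at 2.60 to 13.0 CPM and at 0.458 to 5.78 CPM, with a log2 difference of -0.99 (-2.0 to 0.01) on 72 and 23 UMIs.

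Prkch was lower in SOD1G93A mice in the ventral cholinergic and ventral inhibitory sub-types, in which its WT level was highest, but not only there. In ventral cholinergic neurons it was at 37.3 to 65.7 CPM in WT mice (median 51.5) and at 14.8 to 40.1 CPM in SOD1G93A mice (median 25.8), which overlapped narrowly, and the log2 difference was -0.92 (95% interval -1.45 to -0.39, FDR 0.648, limma). In ventral inhibitory neurons it was at 7.13 to 32.6 CPM (median 16.9) and at 5.43 to 21 CPM (median 6.59), with a log2 difference of -1.21 (-1.92 to -0.51, FDR 0.719, limma) and all 6 pairs lower. In ventral excitatory neurons the difference had the other sign, at 0.42, and in endothelial cells, where its CPM was highest, it was -0.06 (-0.38 to 0.25). Prkcq in dorsal excitatory neurons was at 20.7 to 45.1 CPM and at 31.2 to 62.8 CPM, with a log2 difference of 0.42 (0.07 to 0.77, FDR 0.598, limma).

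No isoform was called as different between sexes, averaged over genotypes, at an FDR under 0.1 in the 10 cell types. limma called 0 of 51 tests (3 at an unadjusted p under 0.05, lowest FDR 0.584), and edgeR and DESeq2 also called 0, next to 0.159% of 68984 gene tests. In motor neurons, Prkcz was 0.56 higher on the log2 scale in females than in males (95% interval 0.13 to 1.00, FDR 0.853, limma), and Prkce was at -0.47 (-0.88 to -0.06, FDR 0.878, limma). The genotype effect did not differ by sex at an FDR under 0.1 for any isoform, with 0 of 51 tests called by limma, edgeR or DESeq2 (1 at an unadjusted p under 0.05), next to 0.0058% of 68984. For Prkca in motor neurons the genotype difference was -1.40 in females and -1.28 in males, and for Prkcb -1.36 and -1.15. The differences between those effects, male minus female, were 0.13 (95% interval -0.85 to 1.10) and 0.21 (-0.75 to 1.17), wide enough to leave a sizable sex difference undetected with 3 mice a group.

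The wider PKC pathway was read from 7 lists holding 82 genes, of which 51 passed the filter in motor neurons. limma called 2 of them, 1 in each direction, at an FDR under 0.1, next to the 3.07% of all genes. Gap43, a growth cone protein and classical PKC substrate, was higher in SOD1G93A motor neurons, at 0 to 16.7 CPM in WT mice (median 10.2) and at 16.2 to 189 CPM in SOD1G93A mice (median 48.2), which overlapped only at that edge (log2 difference 2.66, SE 0.489, FDR 0.00937, limma). The call on Gap43 was lost in 2 of 19 alternative settings, without the SOD1G93A female of pool B (log2 difference 2.02) and without the pool term (2.47). Plcb4, a phospholipase C that makes diacylglycerol, was lower, at 247 to 432 CPM (median 339) and at 108 to 306 CPM (median 204), with overlap (log2 difference -0.66, SE 0.189, FDR 0.0860, limma). The call on Plcb4 was lost in 14 of 20 alternative settings.

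Upstream of the kinases, all 7 of the 7 tested genes of the Gq and phospholipase C list (15 genes) had a log2 difference below 0, from -0.66 to -0.02, with a median of -0.34 and 1 called. The pathway lists were read in the contrast and nuclei that chose the isoforms, so nothing is read from this shared sign. The 3 inositol trisphosphate receptors, which release calcium from stores, had a median of -0.41, and the 9 tested diacylglycerol kinases and lipases, which remove the lipid, a median of -0.28, with none called in either list. The 5 tested receptors for diacylglycerol besides PKC had a median of 0.09, the 6 kinases and phosphatases acting on PKC a median of 0.01, and the 7 tested scaffolds, among them the anchors of the atypical isoforms, a median of 0.26, again with none called. The 14 tested substrates had a median of -0.06 with 1 called. Over all genes the median was 0.00, and 49.7% of genes lay below 0.

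**Figure D5:**
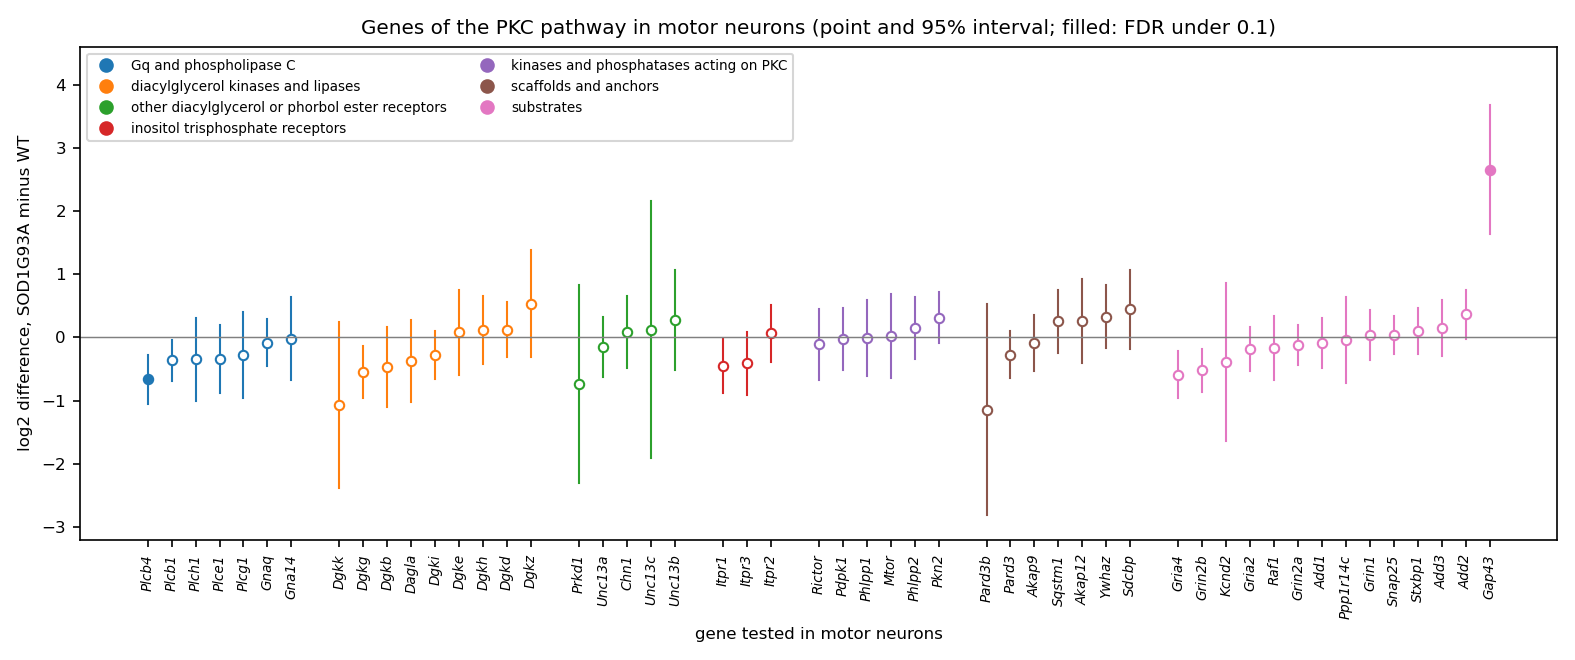
log2 difference in motor neurons, SOD1G93A minus WT (y axis), of the 51 tested genes of the 7 pathway lists (x axis, colored by list), with the 95% interval of each gene and filled points at an FDR under 0.1. The 7 tested Gq and phospholipase C genes lay below 0 (-0.66 to -0.02), in the contrast that chose the isoforms, and Gap43 (2.66) stood far above the other substrates.

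In the 9 other cell types 5 of 456 tests of the pathway lists were called, next to 0.368% of all gene tests in these types. In astrocytes 4 of 64 were called, next to 2.29% of the 9347 genes tested there. Prkd1, a kinase that PKC isoforms activate and that binds diacylglycerol itself, was lower in SOD1G93A astrocytes, at 571 to 968 CPM in WT mice (median 699) and at 387 to 564 CPM in SOD1G93A mice (median 490), without overlap (log2 difference -0.66, SE 0.119, FDR 0.00537, limma). The glutamate receptor subunit Gria2 was also lower in astrocytes (-0.38, FDR 0.0891). Higher there were the actin-binding substrate Marcks (0.49, FDR 0.0918) and the 14-3-3 protein Ywhaz (0.62, FDR 0.0824). Gap43 was higher in Schwann and meningeal cells as well (1.12, FDR 0.0571, limma). Those nuclei held oligodendrocyte markers at a WT median of 5839 CPM and their own markers at 122 CPM. The part of other cells in this value was not tested. Prkd1 was called in all 20 alternatives tried, whereas Gria2, Marcks, Ywhaz and the Schwann and meningeal Gap43 each lost the call in 9 to 14.

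The genes whose levels, averaged over mice of both genotypes, ran most like each isoform over the 18 populations were taken by Pearson's r of log2 mean CPM among 9681 genes, a description across populations that share libraries. Prkca ran with Cdh11, Fam228a and Rasa3 (r of 0.87, 0.87 and 0.86), and Prkcb with Ptprr, Zfp711 and Vopp1 (0.91, 0.91 and 0.90). Prkcd ran with Col27a1, Ldb1 and Map2k1 (0.86, 0.82 and 0.81), Prkce with Gm17276, Lmnb1 and Rab27a (0.85, 0.85 and 0.83), and Prkch with Pglyrp1, Tmem204 and Tfrc (0.92, 0.92 and 0.90). Prkcq ran with Kit, Prkca and Dennd2a (0.84, 0.83 and 0.81), and Prkca was the only isoform among all these neighbors. Prkcz ran with Bicd1, Map6 and Reps2 (0.96, 0.96 and 0.94), and Prkci with Bnip1, Decr2 and Nup133 (0.93, 0.92 and 0.92).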

How the data were processed

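The authors aligned reads to the mm10 pre-mRNA reference with STAR 2.5.1b and Cell Ranger 3.1, and assigned hashtags and clusters in Seurat 4.0.3 (R 4.0.3). The submitters' processing notes also name bcl2fastq 2.20.0.422. The deposited table holds raw UMI counts per gene and nucleus, with the genotype, sex, pool and cell type of each nucleus. The authors removed nuclei with ambiguous hashtags, which leaves doublets within 1 mouse, and no doublet caller or correction for free RNA was run here.

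Raw counts were summed per mouse and population. Genes were filtered with filterByExpr over the 4 sex and genotype groups (minimum count 10), scaled by TMMwsp, and fitted in limma 3.58.1 (voom, robust eBayes; R 4.3.3, edgeR 4.0.16) with group means and a pool term. Mice of 1 pool shared a capture and a library, so the pool served as the replicate block. Genotype was averaged over sexes. FDR was adjusted over all genes of a population by the Benjamini-Hochberg method and called under 0.1. p-values measure the spread between mice. Pairs are mice of the same sex and pool.

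The isoforms and the pathway and marker lists were chosen with earlier results of these data known. All 8 isoforms, every called pathway gene and the 3 nearest genes of each isoform were named (mean CPM of at least 10). Alternatives were TMM or no scaling, no filter or a minimum count of 30, no pool term, edgeR quasi-likelihood, DESeq2 1.42.0, eBayes without the robust option, and leaving out each mouse. Mice with at least 3 motor neurons and the mean CPM over nuclei were used for single genes. The split by Chodl was added after the data were seen. The fit was also run on simulated data, and no result given here rests on that run. Positions come from GENCODE vM21 and promoters from RefSeq.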

Additional observations from a re-analysis of the deposited data

Results flagged for a closer look

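Of 102 groups of mice, each the values of 1 isoform in 1 cell type and genotype, 11 had a highest or lowest mouse far from the rest. The cutoff used flags about 1 in 20 groups if values are normal and groups independent. Here many values rest on few UMIs and the groups share mice, so nothing is read from the count of 11. The WT female of pool A had the lowest Prkci level in WT motor neurons, 23.7 CPM on 4 UMIs, while the next mouse stood at 43.7 CPM. In fibroblasts the SOD1G93A female of pool C stood at 11882 CPM for Prkca and at 1529 CPM for Prkcq, from 2 nuclei, against 425 and 60.4 CPM in the next mouse. The WT male of pool A had 705 CPM of Prkcq from a single fibroblast nucleus and 6 UMIs. In microglia the SOD1G93A female of pool C was high in Prkcd (28.5 CPM, 11 UMIs) and the WT female of pool A low in Prkcq (32.8 CPM, 12 UMIs). In astrocytes the WT male of pool A was low in Prkce at 147 CPM, below the next mouse at 194 CPM, and the SOD1G93A female of pool C was high in Prkcz at 44.2 CPM. The WT female of pool B was high in Prkcz in oligodendrocytes (189 CPM) and in Schwann and meningeal cells (113 CPM), and the WT male of pool B was high in Prkcb in Schwann and meningeal cells (553 CPM on 8 UMIs).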

How the results depend on the processing

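The contrast in motor neurons chose the isoforms, so the counts of calls there describe the fits and support nothing. Prkca was called in all 20 alternatives of scaling, filter, tool and left-out mouse, and Prkcb in 19. Without the replicate block (no pool term) 1 isoform, Prkca, was called in place of 2. In the 10 mice with at least 3 motor neurons, where 22 genes were called in all, the log2 differences were -1.33 for Prkca, called, and -1.13 for Prkcb, not called. The log2 difference ran from -1.58 to -1.18 for Prkca and from -1.52 to -1.13 for Prkcb over the fits that left out 1 mouse. The same fits gave -0.90 to -0.54 for Prkcz, -0.54 to -0.33 for Prkce and -0.71 to -0.29 for Prkci. Over the other settings, the Chodl split among them, Prkce ran from -0.57 to -0.21. In motor neuron nuclei with no Chodl UMI the differences were 0.26 and 1.04, where fewer nuclei and 10 mice entered the fit. Prkcz was called in 4 of 20 alternatives, and Prkce and Prkci in none. Without scaling factors 1 isoform was called outside motor neurons (Prkce in astrocytes). In motor neurons, a separate fit, that setting moved the median log2 difference of all genes to 0.14. Leaving out 1 mouse gave 0 to 1 calls in the neuron sub-types, Prkcq without the WT female of pool A and Prkch without that of pool B. The count of isoforms called in motor neurons ran from 1 to 3 over the 20 alternatives. The counts for sex and for the sex by genotype difference stayed at 0 in all of them.

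The pathway counts were less stable. In motor neurons the 2 calls became 9 without a filter, 1 without scaling, with edgeR or with DESeq2, 0 with a minimum count of 30 or without the replicate block, and 1 to 4 with a mouse left out. In the other types the 5 calls became 1 without the replicate block, 3 with edgeR or without robust eBayes, and 1 to 14 with a mouse left out, the most without the WT female of pool B. The cause was not tested. Over the 20 alternatives the calls among all genes in motor neurons ran from 40 without the replicate block to 457 without a filter, against 157. The 27658 UMIs of the SOD1G93A female of pool C limit what its single motor neuron can show.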
